A study of Saccharomyces cerevisiae with 8 samples.

Results

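The 38 genes described here encode the cytosolic chaperones of budding yeast and the co-chaperones that work with them, together with HSF1, the transcription factor of the heat shock response. They were chosen by name from the Hsp104, Hsp90, Hsp70, Hsp40, chaperonin and cyclophilin families, and all 38 were found among the 6256 genes on the arrays, each with 1 probe. Their transcript levels were compared between 4 cultures of the pressure-sensitive Saccharomyces cerevisiae strain a924E1 (the mutant) and 4 cultures of its parent strain KA31a. Both strains were grown in YPD, a rich medium with 2.0% glucose, at 30 °C for 48 h, and the labels name no pressure treatment and no mutated gene. The mutant cultures carry array numbers 1, 3, 5 and 7 and the parent cultures 2, 4, 6 and 8, and nothing in the labels pairs them. The question is which chaperone transcripts differ in abundance between the strains under these conditions. The design text describes the samples of each strain as independent, and the labels do not settle whether any arrays share an RNA extract. Each group is 1 strain, so the comparison is between these 2 strains.

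Chaperones bind unfolded proteins and help them reach or regain their native shape. Hsp70 proteins hold short hydrophobic stretches in a cycle that J-domain proteins (Hsp40) start and nucleotide exchange factors end, while Hsp90 acts later on nearly folded clients such as kinases and receptors. The chaperonin TRiC, also called CCT, is a double ring of related subunits that encloses actin and tubulin. Hsp104 pulls proteins out of aggregates. In yeast, Hsf1 drives many of these genes, and the general stress factors Msn2 and Msn4 add to the induction of some of them. Chaperones attached to the ribosome and the chaperonin are produced mainly in growing cells.

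Levels below are log2 intensities after background correction and quantile normalization, and a difference is the mutant mean minus the parent mean on that scale, which understates changes of dim genes. A gene was called when limma's adjusted p over all 6256 genes was under 0.05, and "rose" and "fell" are used only for called genes. A probe was above background on an array when the signal-to-noise ratio of both its spots reached 3. The arrays differed in brightness: 36 members were above background on mutants 1 and 3, 22 on mutant 5 and 16 on mutant 7, against 36 to 38 on parents 2, 4 and 6 and 27 on parent 8. The median difference between the 2 spots of a member was 0.12 to 0.24 log2 units on mutants 1 and 3 and parents 2, 4 and 6, 0.33 on parent 8, 0.41 on mutant 7 and 0.59 on mutant 5. Mutants 5 and 7 and parent 8 were scanned at gain 700 and the others at gain 600. The mutant arrays shared 1 column of the slide and the parent arrays the other, so strain and slide column cannot be told apart. A probe can bind the transcript of a near-identical copy, so values of SSA1 and SSA2, SSB1 and SSB2, and HSP82 and HSC82 are uncertain singly. In RNA from whole cultures, fewer cells of a kind and less RNA per cell cannot be told apart.

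More chaperone genes fell than rose in the mutant over all 38, but not among those above background on all 8 arrays. Of the 38 members, 11 fell, 4 rose and 23 did not pass, against 26.6% of all genes called in either direction. The 11 that fell are 28.9% of the members, where 14.0% of all genes fell. The 4 that rose are 10.5%, near the 12.7% of all genes that rose. With filters on dim probes, the share of members that fell was no longer above that of all genes. Where all 4 arrays of at least 1 strain had to exceed background, 7 of 27 members (25.9%) fell. Of all 1536 such genes, 27.9% fell. That filter admits more genes through the parent (1525) than through the mutant (593), so the strain difference itself enters it. Where all 8 arrays had to exceed background, 2 of 15 members fell and 3 rose. Of 582 such genes, 16.8% fell and 200 rose. The median difference was -0.27 over the members and 0.05 over all genes. In 14 members the 4 mutant values lay below all 4 parent values (36.8%, where 14.7% of all genes did), and in 2 they lay above (5.26%, where 15.2% did). Of the 14, only SSA3 and CPR1 were above background on all 4 mutant arrays. The other lower values include undetected ones, and no such share was computed among brighter genes. Over both directions, 29.9% of all genes had strains that did not overlap.

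**Figure D1:**
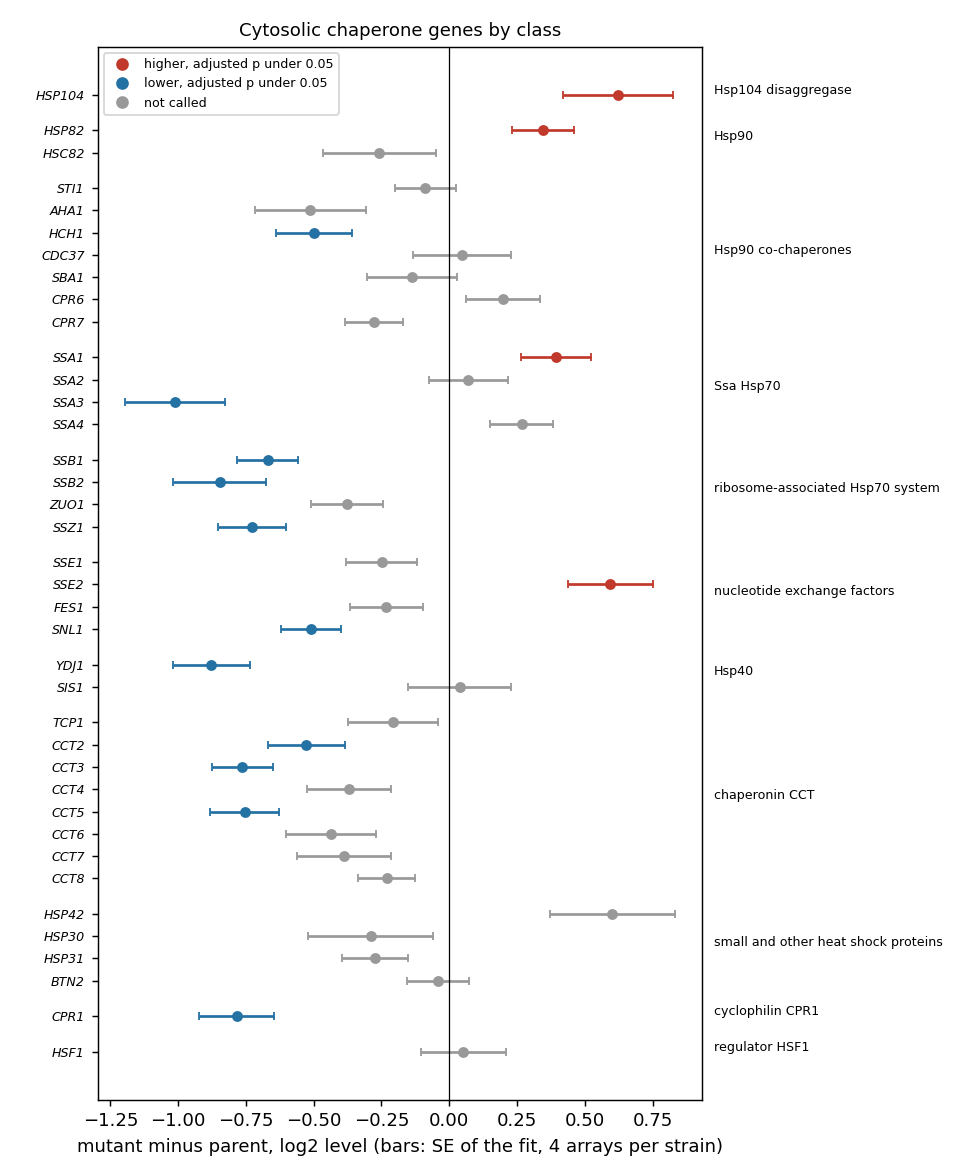
Difference between mutant and parent (x axis, log2 level) for each of the 38 genes (y axis, grouped by class), with bars for the standard error of the fit over 4 arrays per strain. All 8 chaperonin genes and all 4 genes of the ribosome-associated Hsp70 system lie left of 0, and the 4 called rises (red) are HSP104, HSP82, SSA1 and SSE2.

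These calls depended on how arrays were put on a common scale. With each array scaled to its 75th percentile or its median, 0 members were called by limma at either setting, 8 had an unadjusted p under 0.05 at each, all of them lower, and 57 and 37 of all genes passed. Among the 15 called members, every estimate kept its sign under all alternatives run, so the directions below hold under both scalings and the calls do not. In the 11 that fell and 2 of the 4 that rose, the strains did not overlap. Their sign could not change where arrays were only left out, averaged, weighted, blocked or split by gain. Those settings are therefore no check of direction for these genes.

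In the Hsp70 system of the ribosome, most genes fell. Ssb1 and Ssb2 are the Hsp70 proteins that bind chains as they leave the ribosome, and Zuo1 and Ssz1 form the complex that stimulates them. Of these 4 genes 3 fell and ZUO1 did not pass, where 14.0% of all genes fell. Their median was -0.70, or -0.55 with SSB2 set at the bound given for it next. The class median ran from -0.94 to -0.43 under the alternatives, with all tested members negative at each of the 20 settings that kept any of them. In all 4 genes the strains did not overlap, so only settings that changed the values themselves could have turned a sign. SSB1 stood at 6.85, 7.02, 6.81 and 7.0 on mutants 1, 3, 5 and 7 and at 7.52, 7.79, 7.63 and 7.41 on parents 2, 4, 6 and 8. The strains did not overlap, and SSB1 fell by 0.67 ± 0.11 (SE over 4 arrays per strain, limma adjusted p = 0.00123).

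SSB2 stood at 6.68, 6.62, 6.55 and 6.86 on the mutant arrays and at 7.94, 7.71, 7.38 and 7.07 on the parent arrays. The mutant values lay close together, while the parent values spread over a wider range and were lowest on the dimmest parent array. SSB2 was above background on 0 mutant and 3 parent arrays, so only an approximate bound is given for its fold, 1.34-fold lower. It was called lower (limma adjusted p = 0.0038), and that p belongs to the measured difference, not to the bound. Its signal over local background before any normalization was 62.5 and 75 units on mutants 1 and 3, against 494.5 and 442.5 units on parents 2 and 4. The median over all spots was 82 and 112 units on those mutant arrays and 163 and 182 units on those parent arrays.

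SSZ1 stood at 7.54, 7.53, 7.20 and 7.67 in the mutant and at 8.38, 8.29, 8.07 and 8.11 in the parent. It fell by 0.73 ± 0.13 (SE, limma adjusted p = 0.00149), with strains that did not overlap. ZUO1, the J-protein of the pair, differed by -0.38 ± 0.13 (adjusted p = 0.0575), and its strains did not overlap either. With slide row as a block it passed (limma adjusted p = 0.0226), and with scanner gain as a block it did not (0.0740). SSB1, SSZ1 and ZUO1 were above background on 2 mutant arrays, the bright mutants 1 and 3, and on all 4 parent arrays. Another complex at the ribosome exit, the nascent polypeptide-associated complex, had 1 of 3 genes called lower, where 14.0% of all genes fell. EGD1, its beta subunit, fell by 0.42 (limma adjusted p = 0.0222), while EGD2 at 0.07 did not pass. BTT1 did not pass either, but it was above background on 0 mutant and 0 parent arrays and gives no difference.

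All 8 chaperonin genes read lower in the mutant, where 2650 of all 6256 genes did. Of the 8, 3 fell, where 14.0% of all genes fell. The class median was -0.41, it ran from -0.58 to -0.39 under the alternatives, and all tested subunits were negative at each of the 20 settings that kept any of them. In 4 subunits the strains did not overlap. For these, only settings that changed the values themselves could have turned a sign. CCT3 stood at 7.14, 7.05, 6.71 and 6.94 on the mutant arrays and at 7.78, 7.73, 7.64 and 7.73 on the parent arrays. The parent values were nearly equal, and every mutant value lay below them. CCT3 fell by 0.76 ± 0.11 (SE over 4 arrays per strain, limma adjusted p = 0.000557), the smallest adjusted p of all 38 members. CCT5 stood at 7.73, 7.78, 8.0 and 7.45 in the mutant and at 8.33, 8.52, 8.62 and 8.50 in the parent. It fell by 0.75 ± 0.13 (adjusted p = 0.00129), again without overlap.

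CCT2 stood at 8.11, 8.26, 8.12 and 7.72 in the mutant and at 8.41, 8.75, 8.74 and 8.42 in the parent. It fell by 0.53 ± 0.14 (limma adjusted p = 0.0168), a call that ended without parent 4 (-0.47, adjusted p = 0.0600) or parent 6 (-0.47, 0.0545). The other 5 subunits did not pass, with differences of -0.44 for CCT6, -0.39 for CCT7, -0.37 for CCT4, -0.23 for CCT8 and -0.21 for TCP1. Their limma adjusted p ran from 0.0764 to 0.407, and only CCT8 among them had strains that did not overlap. CCT6 passed with slide row as a block (0.0470) and did not with scanner gain as a block (0.1225). No chaperonin gene was above background on all 4 mutant arrays, and 3 were on all 4 parent arrays. Prefoldin hands actin and tubulin to the chaperonin. Of its 6 genes 0 rose, GIM4 fell by 0.36 (limma adjusted p = 0.0443) and 5 did not pass, with a median of -0.02. Of all genes, 12.7% rose and 14.0% fell.

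**Figure D2:**
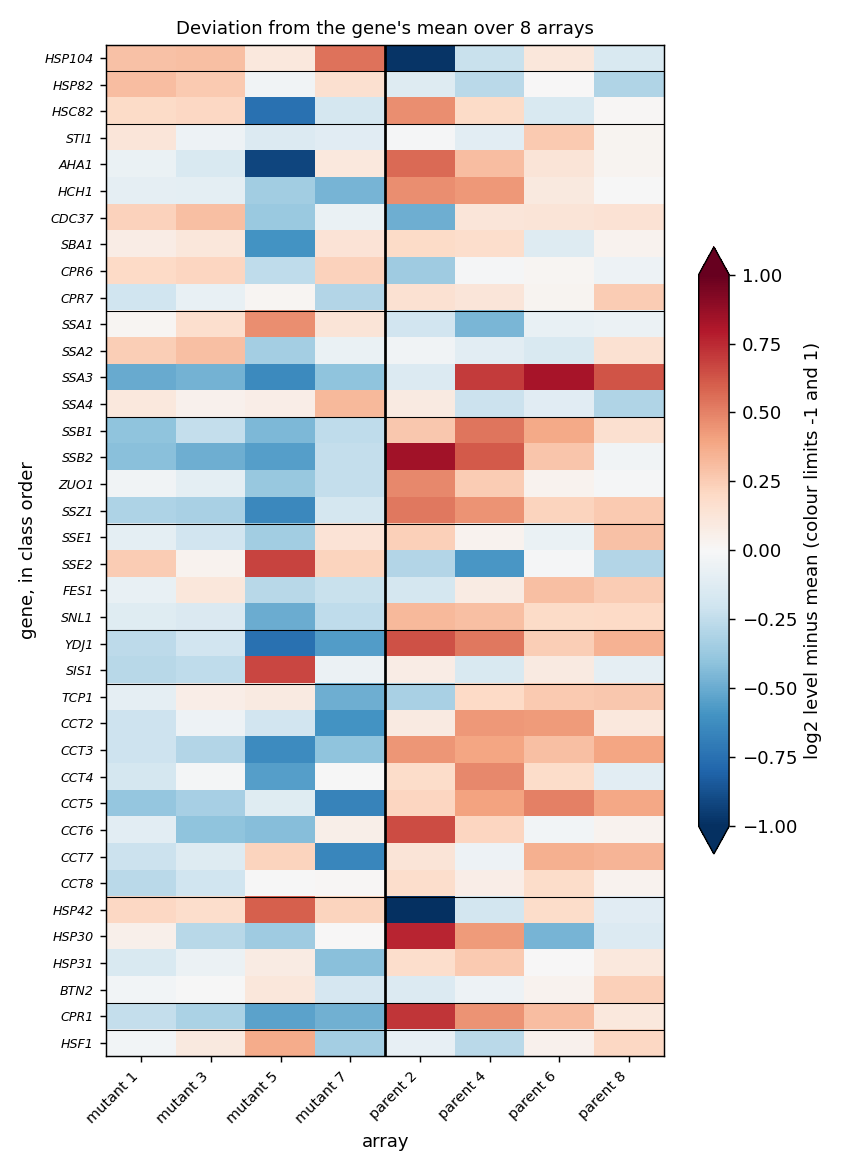
Each gene's log2 level minus its mean over the 8 arrays (colour, limits -1 and 1), with genes in class order on the y axis and arrays on the x axis, mutants left of the line. The ribosome-associated Hsp70 genes, YDJ1, CCT3, CCT5 and CPR1 are below their mean on every mutant array, and HSP104 and HSP42 are far below it on parent 2.

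Among the 4 Ssa proteins, the general cytosolic Hsp70s, the genes did not move together. Ssa1 and Ssa2 are made in growing cells, whereas SSA3 and SSA4 are known as stress-inducible copies. SSA3 stood at 10.01, 10.04, 9.88 and 10.11 on the mutant arrays and at 10.38, 11.21, 11.34 and 11.15 on the parent arrays. The mutant values were tight, and parent 2 was well below the other parents yet above every mutant. SSA3 was 2.02-fold lower in the mutant, a log2 difference of -1.01 ± 0.18 (SE over 4 arrays per strain, limma adjusted p = 0.00208). It was above background on all 8 arrays and stayed called without any single array, with estimates from -1.23 (without parent 2) to -0.90.

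SSA1 stood at 9.01, 9.16, 9.46 and 9.12 in the mutant and at 8.80, 8.54, 8.92 and 8.93 in the parent. The strains did not overlap, though the gap between mutant 1 and parent 8 was small. SSA1 rose by 0.39 ± 0.13 (limma adjusted p = 0.0443), and the call ended without any 1 of 7 arrays (mutants 3, 5 and 7 and all 4 parents), at estimates of 0.30 to 0.44 and adjusted p of 0.0507 to 0.146. With scanner gain as a block its adjusted p was 0.0662.

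SSA4 stood at 9.11, 9.05, 9.08 and 9.33 in the mutant and at 9.10, 8.80, 8.90 and 8.71 in the parent, and its difference of 0.27 ± 0.12 did not pass (limma adjusted p = 0.117). SSA2 stood at 6.41, 6.46, 5.82 and 6.1 in the mutant and at 6.13, 6.06, 6.01 and 6.31 in the parent. Its probe was dim, above background on 2 arrays of each strain, and the difference of 0.07 ± 0.15 did not pass (adjusted p = 0.763). The class median was 0.17.

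**Figure D3:**
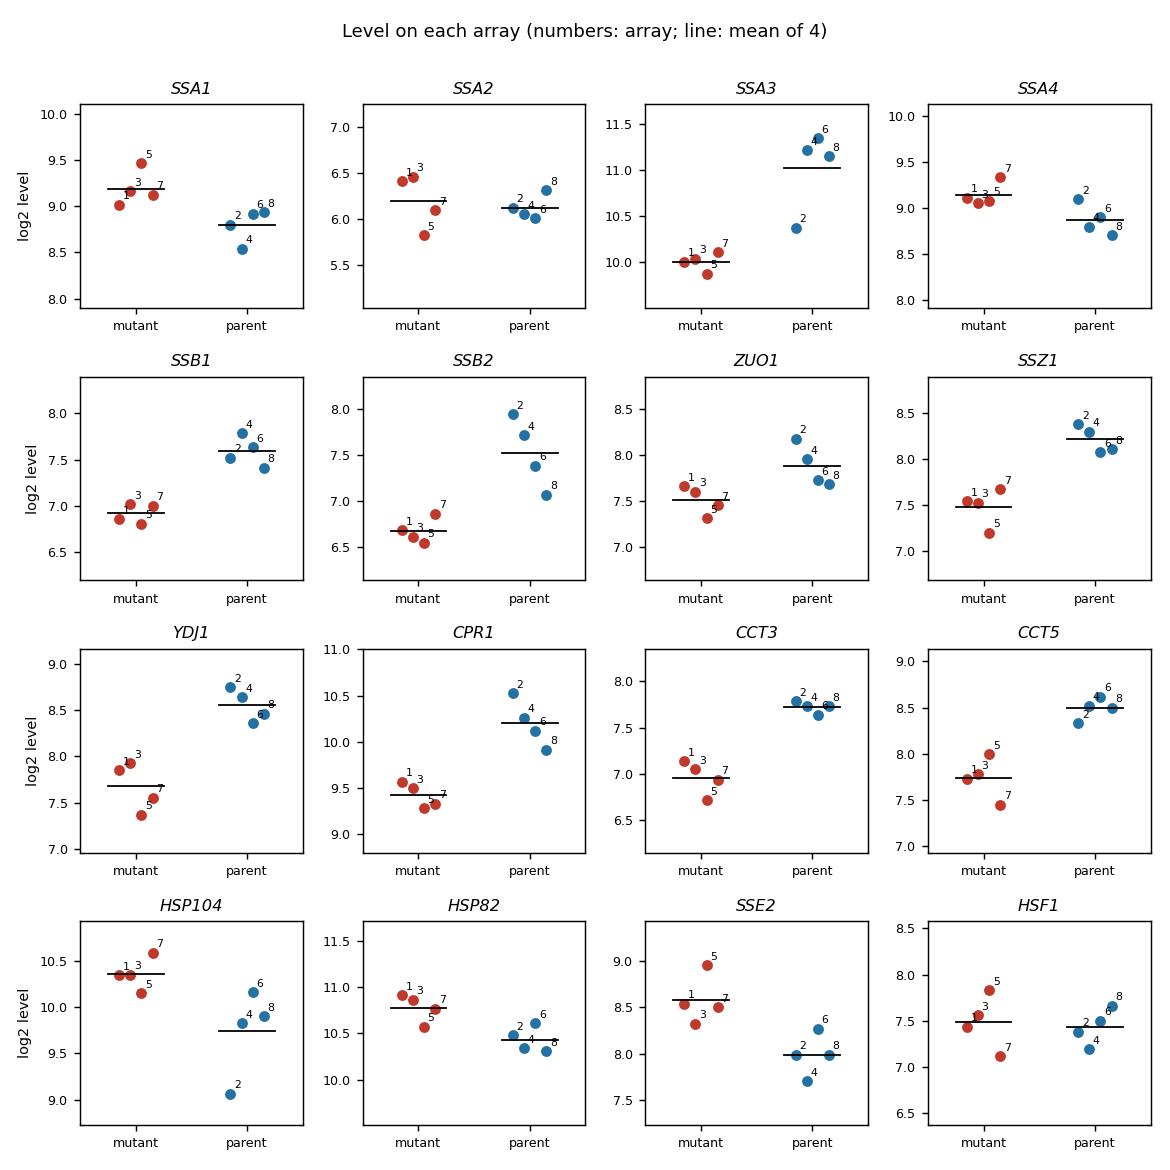
Log2 level on each array (points, numbered by array) and the mean of 4 (line) for 16 genes, each panel spanning the same range of log2 units. SSA3, SSB1, SSZ1, YDJ1, CPR1, CCT3 and CCT5 show mutant values below all parent values, whereas SSA2 and HSF1 overlap.

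Of the J-domain proteins that drive the Ssa cycle, YDJ1 fell and SIS1 did not pass. Ydj1 is the most abundant general J-protein of the yeast cytosol, and Sis1 is an essential one that also restrains Hsf1. YDJ1 stood at 7.85, 7.93, 7.37 and 7.55 on the mutant arrays and at 8.75, 8.64, 8.36 and 8.46 on the parent arrays. It was 1.84-fold lower, by -0.88 ± 0.14 (SE over 4 arrays per strain, limma adjusted p = 0.0011), and stayed called without any single array. YDJ1 was above background on 2 mutant and 4 parent arrays. SIS1 stood at 9.35, 9.37, 10.30 and 9.57 in the mutant, where mutant 5 was high, and at 9.71, 9.48, 9.72 and 9.54 in the parent. Its difference of 0.04 ± 0.19 had an adjusted p of 0.897, and its sign differed between gain 600 (-0.27) and gain 700 (0.39).

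The nucleotide exchange factors, which release ADP from Hsp70, split in direction. Sse1 and Sse2 are the Hsp110 proteins, and SSE2 is known as the stress-inducible copy. SSE2 stood at 8.54, 8.32, 8.96 and 8.50 in the mutant and at 7.99, 7.70, 8.27 and 7.99 in the parent. All mutant values lay above all parent values, and SSE2 rose by 0.59 ± 0.16, or 1.51-fold (limma adjusted p = 0.0155). Without parent 4 the estimate was 0.50 and the call ended (adjusted p = 0.0552). SSE1 differed by -0.25 ± 0.13 and did not pass (adjusted p = 0.192).

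SNL1 encodes an exchange factor with a BAG domain anchored in the endoplasmic reticulum membrane and facing the cytosol. It stood at 6.68, 6.66, 6.31 and 6.55 in the mutant and at 7.13, 7.10, 7.0 and 7.01 in the parent. SNL1 fell by 0.51 ± 0.11 (limma adjusted p = 0.00554) with strains that did not overlap, and was above background on 2 mutant and 3 parent arrays. FES1, a cytosolic exchange factor of the Ssa proteins, differed by -0.23 ± 0.13 and did not pass (adjusted p = 0.239).

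Hsp90 has a pair of near-identical genes, of which HSP82 is strongly heat-induced and HSC82 is expressed throughout growth. HSP82 stood at 10.91, 10.87, 10.57 and 10.77 on the mutant arrays and at 10.48, 10.34, 10.61 and 10.31 on the parent arrays. Mutant 5 lay just below parent 6, and the other mutant values were above all parents. HSP82 rose by 0.35 ± 0.12 (SE over 4 arrays per strain, limma adjusted p = 0.0455). This call ended without any 1 of mutants 1, 3 and 7 or parents 2, 4 and 8, at estimates of 0.30 to 0.36 and adjusted p of 0.0566 to 0.135, and with slide row as a block (adjusted p = 0.0658). HSC82 stood at 9.80, 9.81, 8.86 and 9.43 in the mutant and at 10.07, 9.80, 9.45 and 9.61 in the parent, and its difference of -0.26 ± 0.21 did not pass (adjusted p = 0.407). HSC82 was lowest on mutant 5, without which it differed by -0.05, and at gain 600 it differed by 0.03.

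Of the 7 Hsp90 co-chaperones, HCH1 fell and 6 did not pass, where 14.0% of all genes fell. Hch1 is related to Aha1, which speeds up the ATP cycle of Hsp90. HCH1 stood at 6.94, 6.93, 6.69 and 6.57 in the mutant and at 7.5, 7.47, 7.13 and 7.03 in the parent. It fell by 0.50 ± 0.14 (limma adjusted p = 0.0211), was above background on 2 mutant and 3 parent arrays, and its call ended without parent 2 (-0.43, adjusted p = 0.0575) or parent 4 (-0.44, 0.0737). AHA1 itself differed by -0.51 ± 0.21 and did not pass (adjusted p = 0.0901). Its mutant 7 overlapped the parents and its mutant 5 was far below the other mutants, and without mutant 5 it differed by -0.29.

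CPR7, a cyclophilin that binds Hsp90, differed by -0.28 (adjusted p = 0.0796). It was above background on 0 mutant and 2 parent arrays and gives no fold. Its strains did not overlap. CPR6, the related cyclophilin, differed by 0.20 (adjusted p = 0.332). SBA1, the yeast p23, which stabilises the closed form of Hsp90, differed by -0.14 (0.588), and STI1, which links Hsp70 to Hsp90, by -0.09 (0.604). CDC37, which brings kinases to Hsp90, differed by 0.05 (0.869). The class median was -0.14.

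HSP104 rose. The disaggregase stood at 10.34, 10.35, 10.15 and 10.59 on the mutant arrays and at 9.06, 9.82, 10.16 and 9.90 on the parent arrays. Parent 2 was far below the other parents, and parent 6 overlapped mutant 5. HSP104 rose by 0.62 ± 0.20, or 1.54-fold (SE over 4 arrays per strain, limma adjusted p = 0.0422), above background on all 8 arrays. The call ended without any 1 of mutants 1, 3 and 7 or parents 2, 4 and 8, at adjusted p of 0.0587 to 0.111, and the estimate without parent 2 was 0.40. With scanner gain as a block the adjusted p was 0.0814.

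None of the other 4 heat shock genes passed. HSP42, a small heat shock protein that gathers misfolded proteins in the cytosol, stood at 11.97, 11.93, 12.36 and 11.98 in the mutant and at 10.67, 11.58, 11.94 and 11.65 in the parent. It resembled HSP104 in that parent 2 was well below the other parents, and its difference of 0.60 ± 0.23 did not pass (limma adjusted p = 0.0781). It differed by 0.34 without parent 2. The mutant was higher in all 4 slide rows, and with slide row as a block HSP42 passed (limma adjusted p = 0.0289). With scanner gain as a block it did not pass (0.144). HSP30, a plasma membrane protein that restrains the proton pump Pma1, differed by -0.29 ± 0.23 (0.401), with its highest value of 12.71 on parent 2. HSP31, a glyoxalase of the DJ-1 family, differed by -0.27 ± 0.12 (0.131), and BTN2, which sorts aggregates, by -0.04 ± 0.11 (0.820).

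A list of 9 other stress-induced genes held 3 that rose, 3 that fell and 3 that did not pass (median -0.20), where 12.7% of all genes rose and 14.0% fell. HSP12, a small membrane-binding stress protein, rose by 1.16 (limma adjusted p = 0.000127), and HSP33, SNO4 and HSP32 fell by 0.68, 0.91 and 0.75 (adjusted p = 0.000457, 0.00187 and 0.00351). HSP32, HSP33 and SNO4 are close relatives of HSP31, and their probes may bind each other's transcripts. HSP26, a small heat shock protein, differed by -0.05 (0.896). DDR48 at 0.69 and CTT1, the cytosolic catalase, at 0.61 were the other genes that rose.

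CPR1, the cytosolic cyclophilin A and target of cyclosporin, stood at 9.57, 9.50, 9.28 and 9.33 on the mutant arrays and at 10.52, 10.26, 10.12 and 9.92 on the parent arrays. It was 1.72-fold lower, by -0.78 ± 0.14 (SE over 4 arrays per strain, limma adjusted p = 0.0016), with strains that did not overlap. CPR1 and SSA3 were the members called lower that were above background on all 8 arrays. HSF1 itself stood at 7.44, 7.56, 7.83 and 7.12 in the mutant and at 7.38, 7.19, 7.5 and 7.67 in the parent. The values were interleaved, and the difference of 0.05 ± 0.16 did not pass (adjusted p = 0.837). Of 4 other stress regulators 0 rose and 2 fell (of all genes, 12.7% and 14.0%): MSN2 by 0.63 (adjusted p = 0.00563) and MSN4 by 0.43 (0.0385). SKN7 at -0.21 and YAP1 at -0.23 did not pass, and SKN7 was above background on 0 mutant and 2 parent arrays.

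Whether the copies of a chaperone changed unequally was tested on the difference between both genes of a pair within each array, for 5 pairs. SSA3 minus SSA4 was 0.77 to 0.99 log2 units on the mutant arrays and 1.28 to 2.44 on the parent arrays. The change in that difference was -1.28 ± 0.29 (SE, n = 4 per strain, two-sided exact permutation p = 0.0286, adjusted over the 5 pairs 0.0714). SSE1 minus SSE2 was -1.29 to -0.35 in the mutant and -0.32 to 0.35 in the parent, a change of -0.84 ± 0.26 (exact p = 0.0286, adjusted 0.0714). Both pairs were fully separated between strains, and 0.0286 is the smallest p that 4 against 4 arrays allow. Neither pair passed after adjustment. With only these 2 pairs at the smallest p, 0.0714 is the lowest adjusted value, so neither could pass. HSP82 minus HSC82 changed by 0.60 ± 0.22 (exact p = 0.0857, adjusted 0.143), and SSA1 minus SSA2 by 0.32 ± 0.25 (0.229, adjusted 0.286). SSB1 minus SSB2 counted among the 5 pairs, but no change is given for it. By the rule on both spots, SSB2 was above background on 0 mutant arrays.

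**Figure D4:**
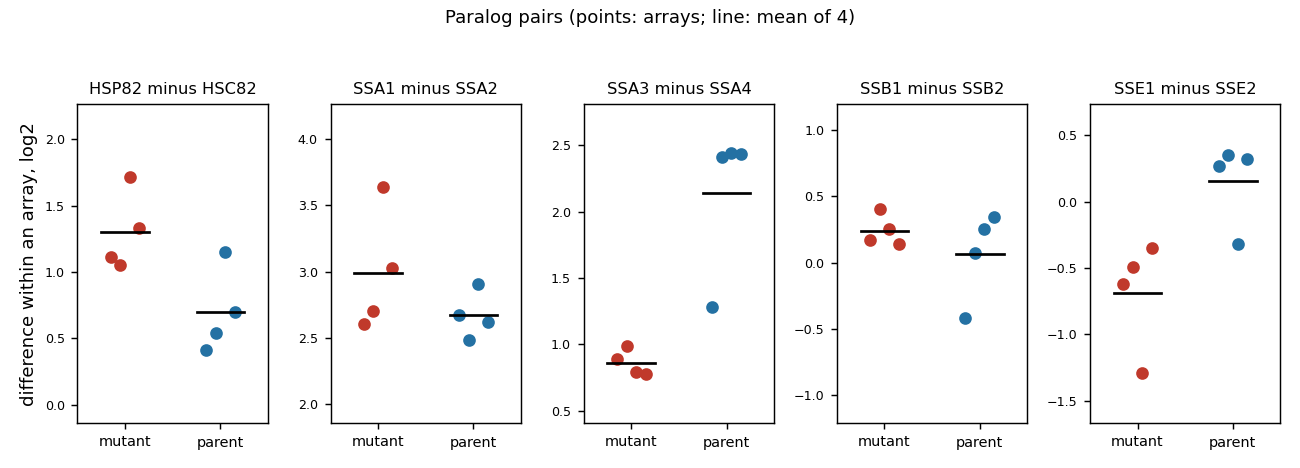
Within-array difference in log2 level between both genes of a pair (y axis) on the 4 mutant and 4 parent arrays (points) with the mean (line). The points of the strains do not overlap for SSA3 minus SSA4 and for SSE1 minus SSE2, and they overlap for the other 3 pairs.

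Chaperones outside the 38 members were counted for comparison, again against 12.7% of all genes that rose and 14.0% that fell. Of 16 other cytosolic co-chaperones 4 fell, XDJ1 rose and 11 did not pass, with a median of -0.13. TAH1, which with Pih1 belongs to the R2TP complex that works with Hsp90, was 2.82-fold lower (limma adjusted p = 0.000121), while PIH1 at 0.15 did not pass. XDJ1, a relative of Ydj1, rose by 0.81 (0.00228), and SGT2, of the tail-anchored protein pathway, fell by 0.55 (0.00386). JJJ1, a J-protein of ribosome assembly, fell by 0.50 (0.00608). The fourth gene that fell, CNS1, was above background on 0 mutant arrays.

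Among 15 chaperone genes of the endoplasmic reticulum, 4 were called lower and 2 higher, and the median was -0.29. CPR2 fell by 0.62 (limma adjusted p = 0.00486), KAR2, the Hsp70 of that compartment, by 0.48 (0.00985) and EUG1, a disulfide isomerase, by 0.45 (0.0173), while MPD1, another isomerase, rose by 0.53 (0.0186). The 12 mitochondrial chaperone genes included 4 that rose and 0 that fell, and their median was 0.08. MGE1, the exchange factor of mitochondrial Hsp70, was 1.84-fold higher (0.00432), HSP60, the mitochondrial chaperonin, 1.55-fold (0.0176) and HSP78, the mitochondrial relative of Hsp104, 1.76-fold (0.0293). HSP78 was lowest on parent 2, at 8.62 against 9.73 to 9.93 on the other parents, and was 1.42-fold higher without it (adjusted p = 0.00871). JAC1, a J-protein of iron-sulfur cluster synthesis, rose by 0.38 (0.0357). SSC1, the main mitochondrial Hsp70, differed by -0.19 and did not pass (0.576). These lists were not tested against each other. Of the 25 genes called in the lists outside the members, 15 kept their call without any single array. The other 10, among them GIM4, EGD1, MSN4, EUG1, MPD1, HSP60, HSP78 and JAC1, lost it without at least 1 array (ERO1 and CNE1 are the remaining genes). With either scaling 0 of the 25 were called by limma, and all 25 kept their direction.

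Of the 11 members that fell, 7 were above background on at most 2 mutant arrays, 2 on 3 and 2 on all 4. On the arrays of gain 600, where the mutant probes were brightest, SSA3 differed by -0.95, SSB1 by -0.71, SSZ1 by -0.71, YDJ1 by -0.69, CCT3 by -0.63, CCT5 by -0.74 and CPR1 by -0.77. On those of gain 700 the same genes differed by -1.15, -0.51, -0.67, -1.0, -0.91, -0.78 and -0.61, in that order. SSB2, above background on 0 mutant arrays, gives no size within a gain. SSB1, SSZ1, YDJ1, CCT3, HCH1 and SNL1 were above background on neither gain 700 mutant array, so their sizes at that gain are uncertain. CCT2, HCH1 and SNL1 lay between -0.58 and -0.40 at both gains. The 4 genes that rose were higher at both: HSP104 by 0.67 and 0.47, HSP82 by 0.41 and 0.36, SSA1 by 0.34 and 0.36, and SSE2 by 0.44 and 0.74. Gain 700 has 1 parent array and gave 0 called members by limma (3 at an unadjusted p under 0.05), while gain 600 gave 11. Each slide row held 1 mutant and 1 parent array. For each of the 11 members that fell, every mutant value lay below every parent value. The mutant was therefore lower in all 4 rows and at each gain, whichever arrays were set against each other. In the row of mutant 5 and parent 6, HSP104 and HSP82 differed by -0.01 and -0.04, and in the other 3 rows both were higher in the mutant. With slide row as a block 17 members were called, 4 higher and 13 lower, where 28.5% of all genes were called. HSP82 lost its call, and HSP42, ZUO1 and CCT6 gained one.

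**Figure D5:**
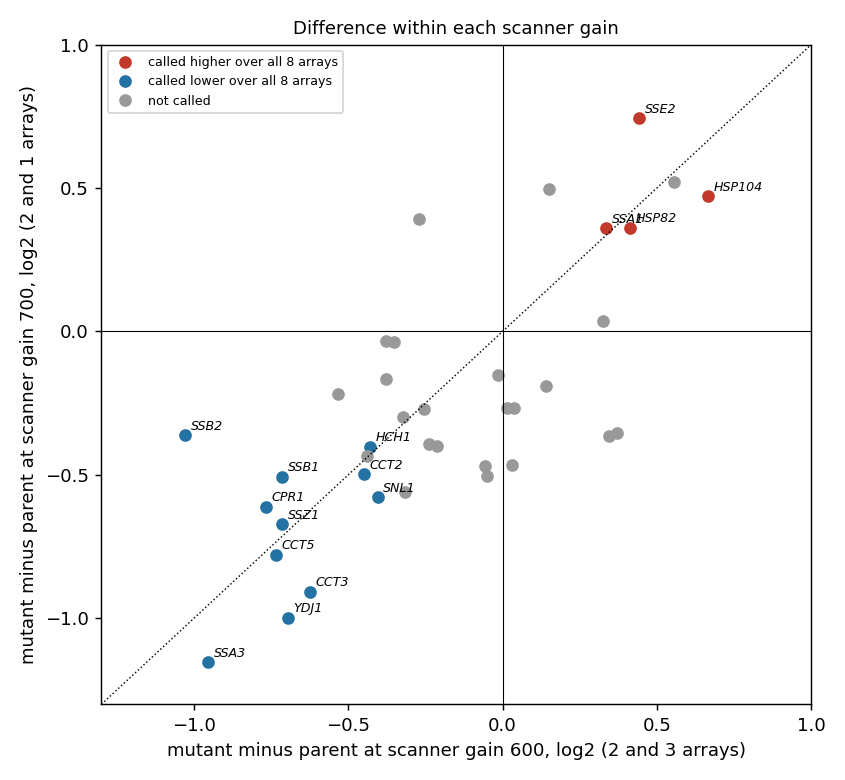
Difference between mutant and parent within scanner gain 600 (x axis, 2 mutant and 3 parent arrays) and within gain 700 (y axis, 2 mutant and 1 parent arrays), in log2 units, with a dotted line of equality. The 11 genes called lower lie below 0 at both gains, which follows from strains that did not overlap. The 4 called higher lie above 0 at both, while SIS1 and several uncalled genes change sign. Values at gain 700 are uncertain for genes below background on both of its mutant arrays.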

How the data were processed

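RNA of 8 cultures was hybridised as Cy5-labelled cRNA to 1 array each, from 0.5 µg of total RNA, per the labels' protocols. The scanner tables deposited by the authors give linear spot intensity, read with GenePix Pro 6.1.0.4 at 635 nm without normalization, per the file headers. Each spot also has a signal-to-noise score and the percent of its pixels that were saturated, as deposited. No spot of a member had saturated pixels, and dim spots not found by the scanner software were kept. The genome build of the probes was not given in the sources used here.

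Spot medians were background-corrected by normexp with an offset of 50 (limma 3.58.1, R 4.3.3), log2-transformed, quantile-normalized and averaged over 2 spots. Strains were compared with lmFit and eBayes, two-sided, without covariates, adjusted by Benjamini-Hochberg over 6256 genes. FES1 and HSP31 were found by systematic name through a table of assembly R64, and 36 members by the files' gene names. Where a gene was not above background on any of the 4 arrays of a strain, the fold is a bound. On each such array the gene's own level, or the dimmest level above background if that was higher, was averaged and set against the other strain's mean. An undetected gene can exceed that dimmest level, so the bound is approximate. Fits were tested on simulated data. The number of arrays limits the precision.

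The authors also deposited a table of probe intensity. Set against the scanner values, it matched quantile-normalized spot medians after subtraction of 32.34 units, linear, not centred, with column medians of 75.2, 75.1, 78.4 and 79.4 (mutants 1, 3, 5 and 7) and 76.6, 76.1, 77.0 and 75.5 (parents 2, 4, 6 and 8). Direction does not apply to one colour, and why that constant was subtracted stays unknown.

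The members and lists were chosen with earlier results of these data known. All 38 members are named, with up to 4 called genes per related list and others where a count of 5 or fewer called for them. Promoter motifs and protein sequences were not analysed here. Some results of the related lists are not reported here.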

Additional observations from a re-analysis of the deposited data

Results flagged for a closer look

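In 5 of 76 groups of 4 arrays (38 genes in 2 strains), 1 array stood apart from the other 3 by Dixon's criterion, where chance gives about 1 in 20. Mutant 5 was the array in 3 of them. SBA1 stood at 11.19 on mutant 5 and at 11.86 to 11.93 on the other mutants. CPR6 stood at 10.19 on mutant 5 and at 10.65 to 10.68 on the others. HSP42 stood at 12.36 on mutant 5 and at 11.93 to 11.98 on the others. Parent 2 was the array for CDC37, at 7.35 against 7.95 to 7.98, and for TCP1, at 7.17 against 7.69 to 7.76. None of these 5 genes was called.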

How the results depend on the processing

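No paired analysis by replicate number was possible because the strains share no replicate numbers. Slide row, which held 1 array of each strain, gave 17 calls (4 higher, 13 lower) as a block, where 28.5% of all genes were called. Of 764 values of single members under the alternatives, 647 kept their side of the threshold, 89 lost a call, 28 gained one and 0 called values changed sign. Where the strains of a member did not overlap, settings that only dropped, averaged, weighted, blocked or split arrays could not change its sign. The 15 calls (4 higher, 11 lower) became 0 (0 and 0) with 75th percentile scaling, with median scaling and within gain 700. These scalings moved the median of all genes from 0.05 to 0.21 and 0.15, and the median of the members from -0.27 to -0.35 and -0.40. Genes called higher numbered 2 without background correction, 1 with offset 10, 2 with scanner gain as a block and 2 within gain 600. Mutants 1 and 3, and parents 6 and 8, were averaged as close arrays, because the labels do not settle whether such arrays share an RNA extract. Correlations between mutant arrays reached 0.996 over all genes. With these pairs averaged 12 members were called, 1 of them higher, where 18.3% of all genes were called. Among genes detected on 4 of 4 arrays of at least 1 strain 7 members were lower, where 27.9% of such genes were. Among those detected on all 8 arrays 5 members were called, 2 of them lower, where 51.2% of such genes were called. These filters test fewer genes. Array weights gave 27 (7 higher, 20 lower), where 48.5% of all genes were called. Leaving out 1 array gave 9 to 16 calls, 0 to 4 higher and 9 to 13 lower, with 9 and 0 higher without parent 4, 1 higher without mutant 3 or 7 or parent 2 or 8, and 2 without mutant 1. Of all genes, 19.3% (without parent 4) to 27.2% (without mutant 7) were called when 1 array was left out. SSA1 minus SSA2 turned to -0.19 with 75th percentile and with median scaling, both without a call. No p is given for the pairs without 1 array. Their changes then ran from 0.47 to 0.76 for HSP82 minus HSC82 and from 0.11 to 0.45 for SSA1 minus SSA2. For SSA3 minus SSA4 they ran from -1.57 to -1.18, and for SSE1 minus SSE2 from -1.0 to -0.64. The cause of these shifts was not tested. SSB2 and CPR7 were above background on 0 mutant arrays and SSA2 on 2 arrays of each strain, which limits their values. Leave-one-out and scaling results of the lists outside the members were chosen after seeing the data.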
